A study of Mus musculus with 4 samples.

Results

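The transcription factors described here set and hold B-lineage identity: the EBF1, PAX5 and FOXO1 group with its partners Pou2af1, Bcl11a and Bach2, and the Ikaros family. The probes were those whose gene name in the deposited signal table equalled Ebf1, Pax5, Foxo1, Pou2af1, Bcl11a, Bach2, Ikzf1, Ikzf2, Ikzf3 or Ikzf5, whatever the letter case. This gave 11 of the 25697 probes on the array, for 9 of the 10 genes and of the 18138 gene names in the table. Ikzf1 and Ikzf5 had a pair of probes each and the other genes a single probe. Ikzf3 was not analysed here.

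RNA came from C57BL6/J mice and was measured on 4 Illumina MouseRef-8 bead arrays, 1 for each combination of 2 genotypes and 2 fractions of B220+ bone marrow. The groups were CD43- cells of mice lacking both Btg1 and Btg2 (dKO), CD43- cells of wild-type mice (WT), dKO CD43+ cells and WT CD43+ cells. The labels place Hardy fractions A to C (progenitor and pro-B stages) in the CD43+ gate and D to F in the CD43- gate, which holds pre-B cells and the stages after them. The products of Btg1 and Btg2 restrain proliferation and recruit a complex that shortens mRNA tails. The labels give no number of animals, age or pooling. With 1 array per group, no difference between groups can be set against a spread between replicates. The errors given are standard errors (SE) of the beads of a probe, 26 to 56 per array for the probes described here. They say nothing of how far other mice or other RNA preparations would vary.

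In lymphoid progenitors EBF1 and FOXO1 act together to start the B-lineage programme, and EBF1 induces Pax5, which then represses genes of other lineages and holds commitment. Pou2af1 encodes OBF-1, a coactivator of the octamer factors at immunoglobulin promoters, BCL11A is needed for the earliest B-lineage cells, and BACH2 restrains plasma cell differentiation and works in the pre-B checkpoint. Ikaros (Ikzf1) is a zinc finger protein required for lymphoid development. Helios (Ikzf2), Aiolos (Ikzf3) and Pegasus (Ikzf5) are members of its family.

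Between 39.5% and 43.3% of all probes were detected on each array (detection p under 0.01). Btg1 had signals of 8114.9 in dKO CD43- cells, 19425.1 in WT CD43- cells, 3459.3 in dKO CD43+ cells and 8610.2 in WT CD43+ cells for 1 of its probes, a log2 difference, dKO minus WT, of -1.44 and -1.71. The probe was thus lower but well detected in dKO cells, and its place relative to the deletion is not stated, so it is a limited check of the labels. Btg2 was not detected on any array. The dKO arrays were brighter as deposited, with a mean signal 1.17 times that of WT in CD43- cells and 1.20 times in CD43+ cells. Per-array values below are deposited signals, and log2 differences are taken after background correction and quantile normalization over the 4 arrays, which removes that offset.

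Of the 11 probes, 9 were detected on both CD43- arrays and 8 on both CD43+ arrays, in dKO as in WT. The dimmer Ikzf5 probe, at 134.6 to 153.1, and the Ikzf2 probe, at 133.6 to 168.5, were not detected on any array. Ikzf2 came nearest to detection in dKO CD43+ cells, with a detection p of 0.0125. Pax5 was detected in CD43- cells of both genotypes and in CD43+ cells of neither.

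**Figure D1:**
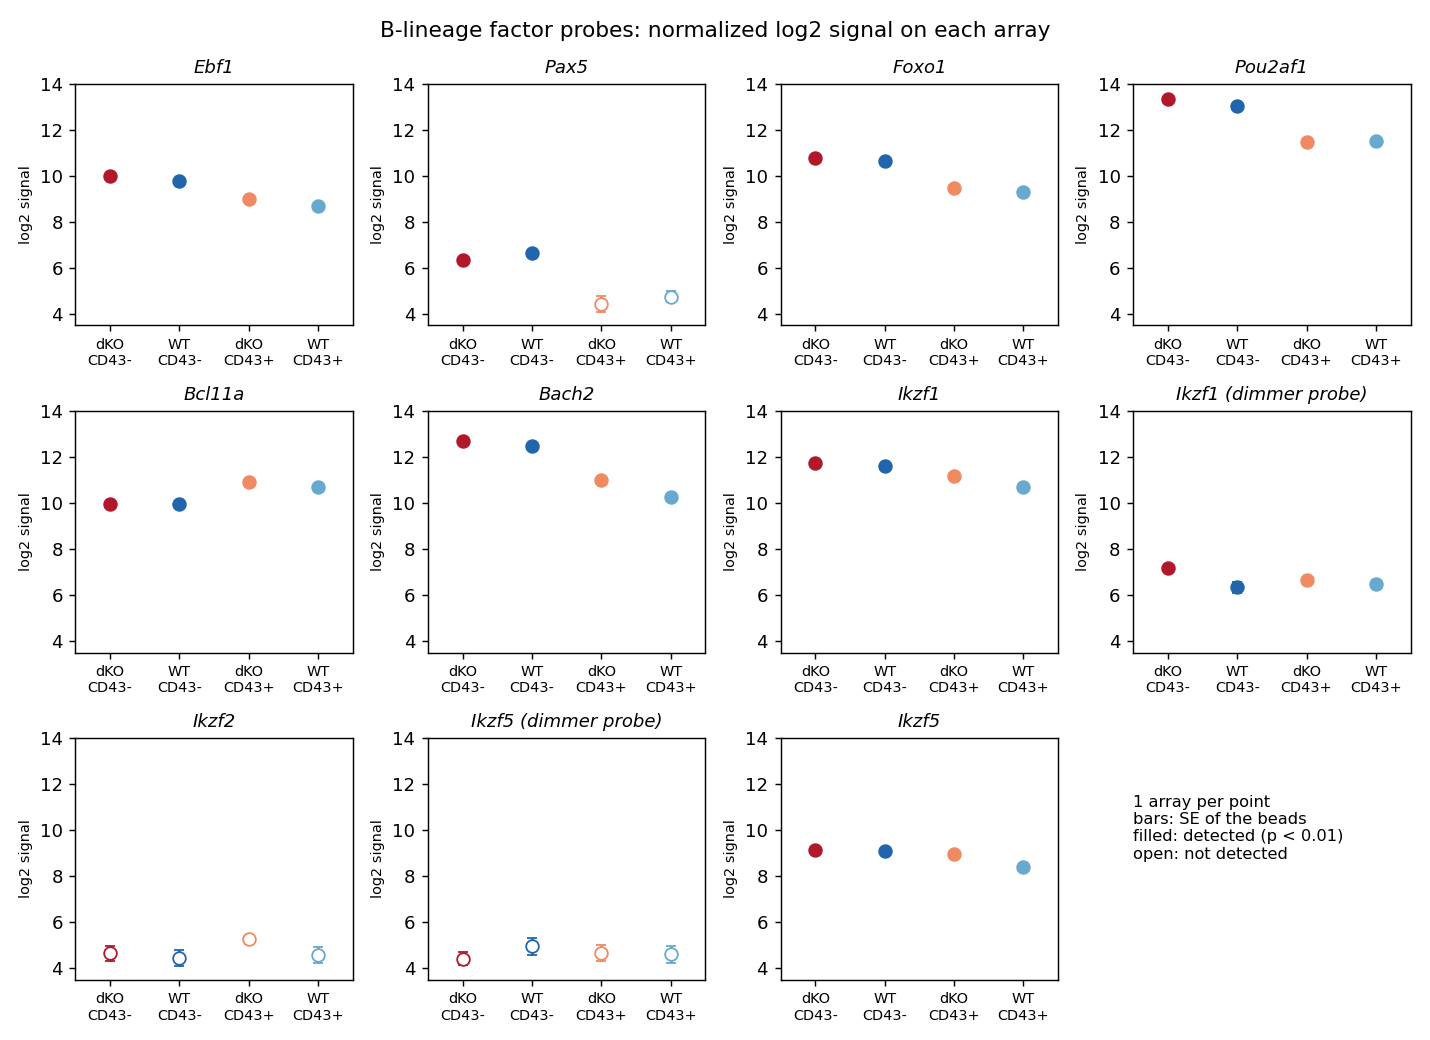
Normalized log2 signal of each of the 11 probes on each of the 4 arrays (1 array per point, bars the SE of the beads, filled points detected and open points not detected at a detection p under 0.01). Ebf1, Foxo1, Pou2af1 and Bach2 sit higher on both CD43- arrays than on both CD43+ arrays, Bcl11a sits lower, and the points of Ikzf2 and of the dimmer Ikzf5 probe are all open.

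CD43- cells carried more RNA of the EBF1, PAX5 and FOXO1 group than CD43+ cells in both genotypes, and less of Bcl11a. In bulk samples such as these, fewer cells of a type and less RNA per cell cannot be told apart. Ebf1, Pax5, Foxo1, Pou2af1 and Bach2 were at least 2-fold higher in CD43- cells of dKO mice and of WT mice alike, and no member was 2-fold lower. This is 5 of 9 probes tested in each genotype. Among all probes detected on at least 1 of the 2 arrays, 6.02% of 11481 were at least 2-fold higher and 9.69% lower in dKO cells, and 7.93% of 11576 higher and 10.4% lower in WT cells. Past the 95% bead interval, 7 of 9 member probes were higher and 1 lower in each genotype, against 34.6% higher and 26.6% lower of all probes in dKO cells and 35.7% and 28.3% in WT cells. Pax5 entered these counts only through the fraction in which it was detected.

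Ebf1 had a signal of 1264.2 in dKO CD43- cells and 883.5 in WT CD43- cells, against 730.1 in dKO CD43+ cells and 481.4 in WT CD43+ cells. Both CD43- arrays lay above both CD43+ arrays. The log2 difference, CD43- minus CD43+, was 1.01 (bead SE 0.146) in dKO and 1.08 (0.161) in WT, about the 2-fold line itself. Foxo1, which drives recombinase and Il7r expression, had 2050 and 1495.6 in dKO and WT CD43- cells, against 953.8 and 663.9 in dKO and WT CD43+ cells. Its log2 difference was 1.30 in dKO and 1.33 in WT, with a bead SE of 0.087 and 0.091.

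Pax5 gave a dim probe, at 211.8 and 209.8 in dKO and WT CD43- cells, against 133.1 and 146.9, neither detected, in dKO and WT CD43+ cells. Only a bound can be given for it: on the normalized scale with an offset of 16, the level was at least 2.02-fold higher in CD43- cells than in CD43+ cells in dKO and at least 2.45-fold higher in WT. For a bound, the undetected array was given its own value for the probe or that array's lowest value of any detected probe, whichever was higher. The bound depends on the background correction, since the deposited signals themselves differed by a log2 ratio of 0.67 in dKO and 0.51 in WT, short of 2-fold.

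Pou2af1 was at 11309.6 in dKO and 7479 in WT CD43- cells, against 3410 in dKO and 2648.1 in WT CD43+ cells. Its log2 difference was 1.84 (bead SE 0.078) in dKO and 1.52 (0.056) in WT. Bach2 had signals of 7581.3 in dKO and 5023 in WT CD43- cells, against 2457.7 in dKO and 1177.5 in WT CD43+ cells. Among the member probes detected on all 4 arrays, Bach2 had the widest gap between the fractions in WT, 2.20 (0.061), and a gap of 1.73 (0.058) in dKO. For both genes, as for Ebf1, both CD43- arrays lay above both CD43+ arrays. The share of all probes that separate in this way is not given here, so nothing is read from it.

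Bcl11a ran the other way. Its signal was 1238.3 in dKO and 991.8 in WT CD43- cells, against 2365.8 in dKO and 1545.6 in WT CD43+ cells. The log2 difference, CD43- minus CD43+, was -0.95 (bead SE 0.069) in dKO and -0.73 (0.066) in WT. Both values lay past the bead interval and short of 2-fold.

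In the Ikaros family no probe reached a 2-fold gap between the fractions. The brighter Ikzf1 probe had 3876.2 in dKO and 2823.9 in WT CD43- cells, against 2733.7 in dKO and 1517.5 in WT CD43+ cells, a log2 difference of 0.57 (bead SE 0.068) in dKO and 0.93 (0.087) in WT. The dimmer Ikzf1 probe was at 279.8 in dKO and 193.3 in WT CD43- cells, against 246.6 in dKO and 208.4 in WT CD43+ cells. The probes disagreed in WT, where the dimmer one gave -0.13 (0.287), within its bead interval. The brighter Ikzf5 probe had 743.7 in dKO and 597.7 in WT CD43- cells, against 720.4 in dKO and 417.9 in WT CD43+ cells. Its gap was 0.72 (0.135) in WT and 0.16 (0.144), within the bead interval, in dKO.

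A limma fit of all 4 arrays with genotype and fraction as additive terms was the only one with a residual degree of freedom, namely 1, and it takes any fraction difference that depends on genotype as noise. Over its 12191 probes, 9.05% rose and 11.1% fell in CD43- cells at an adjusted p under 0.05. Of the 9 member probes in the limma fit, 6 passed, 5 of them upward with Pax5 included. The log2 estimate, CD43- minus CD43+, was 1.97 for Bach2 (limma, adjusted p = 0.0067), 1.68 for Pou2af1 (adjusted p = 0.00728), 1.31 for Foxo1 (adjusted p = 0.0102) and 1.05 for Ebf1 (adjusted p = 0.0177). For Pax5 the limma adjusted p was 0.00483, but the probe entered the fit only through the CD43- arrays and its CD43+ values were those of an undetected probe, so nothing is read from it. Bcl11a fell by 0.84 (limma, adjusted p = 0.0332). The brighter Ikzf1 probe, at 0.75, just missed the threshold (limma, adjusted p = 0.0515), and the brighter Ikzf5 probe was at 0.44 (adjusted p = 0.192). With the authors' RMA values in place of the signals, Ebf1 (limma, adjusted p = 0.0511) and Bcl11a (adjusted p = 0.0768) missed the threshold. With some other normalizations the brighter Ikzf1 probe passed it (limma, adjusted p = 0.00961 with an offset of 50). In the RMA values, which cannot be tied to 1 of its probes, Ikzf1 missed it, at 0.49 (limma, adjusted p = 0.164).

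**Figure D2:**
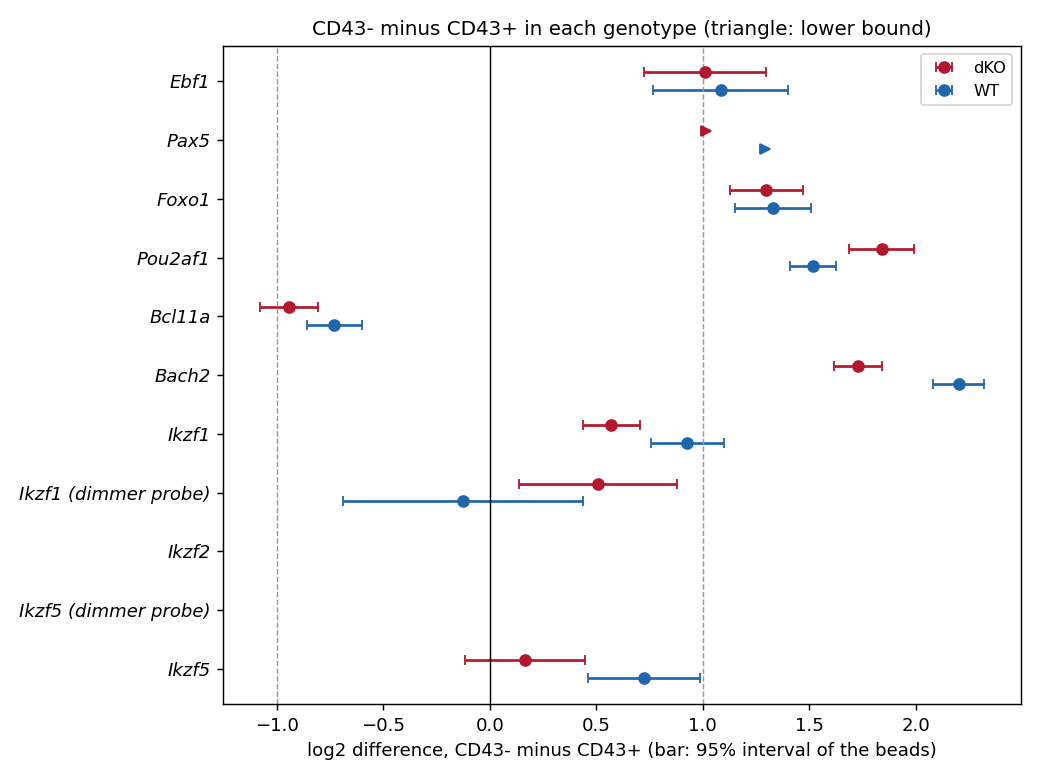
Log2 difference, CD43- minus CD43+, of each probe in dKO cells and in WT cells (bars the 95% interval of the beads, triangles lower bounds, dashed lines 2-fold). Ebf1, Foxo1, Pou2af1 and Bach2 lie at or beyond the right dashed line in both genotypes, Pax5 is a lower bound, and Bcl11a lies left of 0 at -0.95 in dKO and -0.73 in WT.

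Markers of cells other than B cells were detected in both fractions, and those of NK, T and plasmacytoid dendritic cells moved with the fraction. B-cell markers (8 of 10 on the array) summed to signals of 99491.3 in dKO and 100448 in WT CD43- cells, against 60531.9 in dKO and 60415.9 in WT CD43+ cells. All 8 were detected on every array except Ms4a1, which was not detected in dKO CD43+ cells. Markers of NK cells (10 on the array) summed to 3727.4 in dKO and 2431.8 in WT CD43- cells, against 29409.3 in dKO and 16885 in WT CD43+ cells. Eomes and Tbx21, defining factors of NK cells, and Cd3d, Cd3e and Cd3g, of T cells, were not detected in CD43- cells of either genotype, while all 10 NK-cell and all 9 T-cell markers were detected in CD43+ cells of both. Markers of plasmacytoid dendritic cells (8 on the array) summed to 24963.6 in dKO and 17449.2 in WT CD43- cells, against 73795 in dKO and 51605.7 in WT CD43+ cells. Ly6d, which B-lineage cells also express, made up most of the CD43- sums, and without it they were 7627.7 in dKO and 2589.2 in WT CD43- cells, against 58200.3 in dKO and 43234.1 in WT CD43+ cells. Bcl11a, which was higher in the CD43+ fraction, is also a factor of plasmacytoid dendritic cells. The part of these cells in the member differences was not tested.

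**Figure D3:**
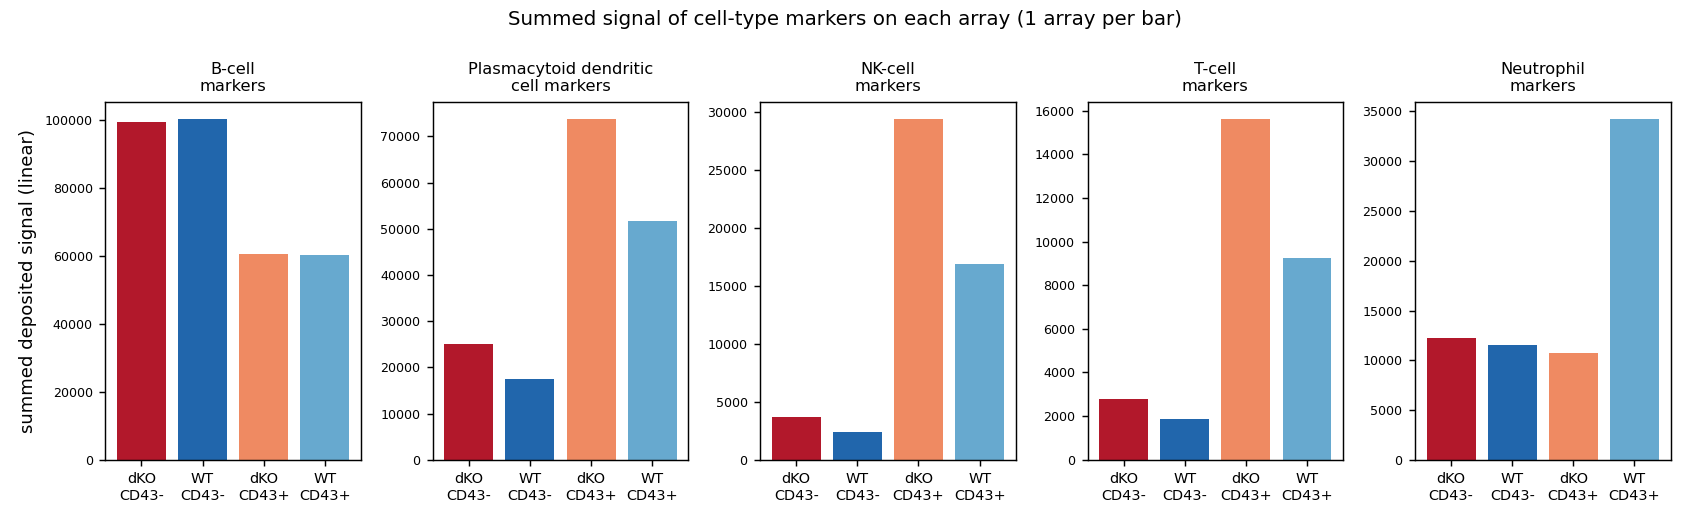
Summed deposited signal of the marker genes of 5 cell types on each of the 4 arrays, on linear axes that start at 0 (1 array per bar). B-cell markers are higher on both CD43- arrays, T-cell, NK-cell and plasmacytoid dendritic cell markers are higher on both CD43+ arrays, and neutrophil markers are highest in WT CD43+ cells, at 34258.3.

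In the comparison of genotypes the members sat slightly above WT and none reached 2-fold. In CD43- cells 8 of 9 probes tested were above 0, with a median log2 difference, dKO minus WT, of 0.13. In CD43+ cells 7 of 8 were above 0, with a median of 0.27. Over all probes tested, 48.5% of 10784 were above 0 in CD43- cells, with a median of -0.01, and 51.9% of 11711 in CD43+ cells, with a median of 0.02. At 2-fold, 0 of 9 member probes were called in CD43- cells, against 3.47% higher and 2.89% lower among all probes, and 0 of 8 in CD43+ cells, against 1.61% higher and 2.39% lower. The all-probe split depended on the scaling. It was 374 higher and 312 lower in CD43- cells, against 599 and 150 when each array was scaled on its median and 284 and 371 when scaled on probes detected on all 4 arrays. In CD43+ cells it was 188 higher and 280 lower, against 515 and 190, 111 and 508, and 386 and 361 in the authors' RMA values. Scaling on the median of all probes shifted the median difference to 0.22 in CD43- cells and 0.29 in CD43+ cells.

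Bach2 showed the widest genotype gap of the members in CD43+ cells but not in CD43- cells. It was 1.18-fold higher in dKO than in WT CD43- cells, a log2 difference of 0.24 (bead SE 0.064), and 1.64-fold higher in dKO than in WT CD43+ cells, at 0.71 (0.055). Each value lay past its bead interval. In the additive limma fit the Bach2 estimate, dKO minus WT, was 0.48 with an adjusted p of 0.291, and it passed the threshold only when limma's variance followed a trend with intensity (adjusted p = 0.0389).

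The brighter Ikzf1 probe stood at 0.13 (bead SE 0.073), within its bead interval, in CD43- cells and was 1.40-fold higher in dKO than in WT CD43+ cells, at 0.48 (0.082). The dimmer Ikzf1 probe gave the opposite order of the fractions, 0.82 (0.265) in CD43- cells and 0.19 (0.217) in CD43+ cells, so the pair shared only the sign. The brighter Ikzf5 probe was at 0.02 (0.144) in CD43- cells and 1.49-fold higher in dKO than in WT CD43+ cells, at 0.58 (0.134). Its CD43- value was -0.67 in the authors' RMA table, which holds 1 value per gene name and in which the Ikzf1 and Ikzf5 values cannot be tied to a single probe.

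For Ebf1, Foxo1 and Pax5 the genotype gaps lay within the bead interval or, for Ebf1 in CD43+ cells, just past it. Ebf1 stood at 0.24 (bead SE 0.150) in CD43- cells and 0.32 (0.157) in CD43+ cells. Foxo1 stood at 0.13 (0.092) and 0.17 (0.086). Pax5 was at -0.31 (0.209) in CD43- cells, the one member below 0 there. Pou2af1 was 1.22-fold higher in dKO than in WT CD43- cells, at 0.29 (0.068), and at -0.04 (0.068) in CD43+ cells. Bcl11a was at 0.01 (0.073) in CD43- cells and 0.22 (0.062) in CD43+ cells. In all, 3 of 9 probes in CD43- cells and 5 of 8 in CD43+ cells were higher in dKO past the 95% bead interval, and 0 were lower, where 24.7% of all probes were higher and 25.7% lower in CD43- cells, and 25.1% higher and 23.1% lower in CD43+ cells.

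No member probe was called between genotypes in the additive limma fit: 0 of 9 passed an adjusted p under 0.05 and 0 passed an unadjusted p under 0.05. Of all 12191 probes, 0.0164% were called higher and 0.0082% lower, and 8.92% and 9.42% at the unadjusted level. Neutrophil markers moved with genotype in CD43+ cells, summing to 10764.4 in dKO cells and 34258.3 in WT cells. All 12 were detected on both arrays, all 12 were lower in dKO, and 9 of them at least 2-fold, where 2.03% of all genes were. In CD43- cells their deposited signals summed to 12194.9 in dKO and 11496.4 in WT cells, and after normalization 12 of 12 were below 0, with a median of -0.36. Plasmacytoid dendritic cell markers, with the sums given above, were above 0 for 7 of 7 genes tested in CD43- cells. Of them 5 were at least 2-fold higher in dKO, where 3.66% of all genes were. Among the 5, Clec10a was detected in dKO but not in WT CD43- cells, with a log2 bound of 1.12. Pacsin1, also among the 5, was at -0.017 in the RMA values. In CD43+ cells 4 of the 7 plasmacytoid dendritic cell markers tested were above 0 and 3 below, with a median of 0.13. T-cell markers (9 on the array) summed to 2777.8 in dKO and 1854.2 in WT CD43- cells, and 15623.2 in dKO and 9237.2 in WT CD43+ cells. In CD43+ cells 10 of 10 NK-cell and 8 of 9 T-cell markers were above 0, and 8 of 8 B-cell markers were below 0 there with a median of -0.31. The part of these cells in the member values was not tested.

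**Figure D4:**
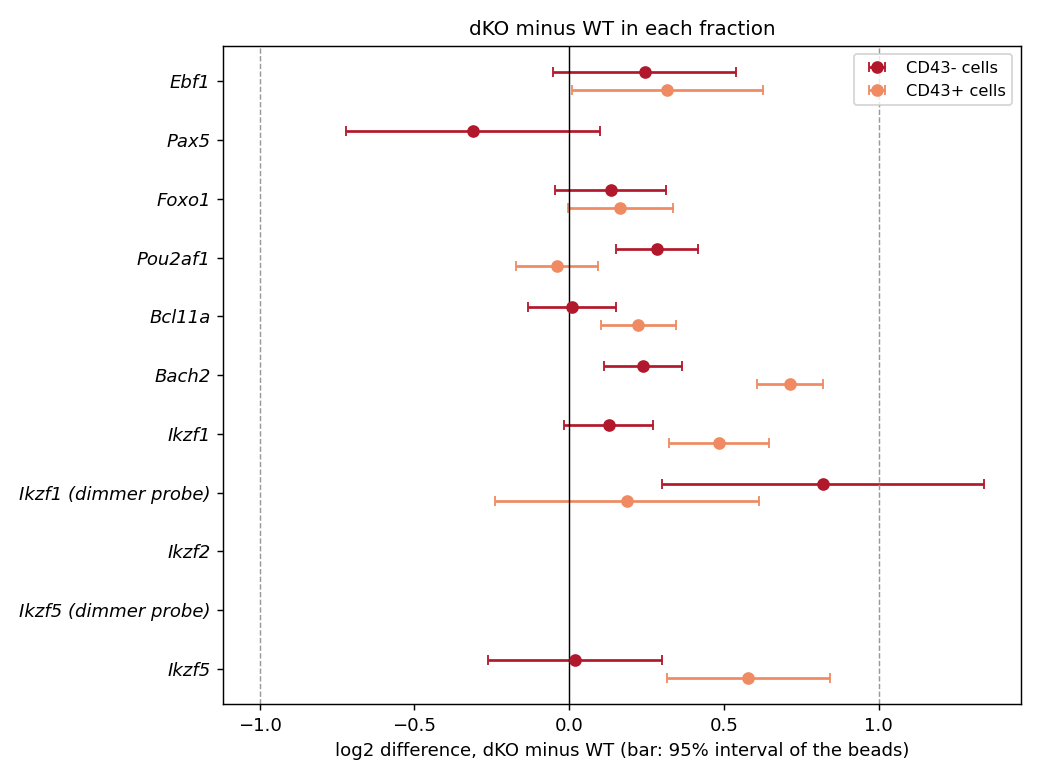
Log2 difference, dKO minus WT, of each probe in CD43- cells and in CD43+ cells (bars the 95% interval of the beads, dashed lines 2-fold, no point where neither array detected the probe). All points lie between the dashed lines, with Bach2 at 0.71, Ikzf5 at 0.58 and Ikzf1 at 0.48 in CD43+ cells.

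The genotype gap differed between the fractions by -0.47 (bead SE 0.084) for Bach2, -0.56 (0.197) for the brighter Ikzf5 probe and -0.36 (0.110) for the brighter Ikzf1 probe, CD43- minus CD43+ of dKO minus WT. It differed by 0.63 (0.343) for the dimmer Ikzf1 probe, opposite in sign to the brighter one, and by 0.32 (0.096) for Pou2af1. Among all probes detected on all 4 arrays, 18.7% had a larger difference in size than Bach2, 13.3% than the brighter Ikzf5 probe, 29.7% than the brighter Ikzf1 probe and 34.2% than Pou2af1. For Ebf1 and Foxo1 it was -0.07 (0.218) and -0.03 (0.126). With 1 array per group these differences were not tested.

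Genes that EBF1 and PAX5 are known to activate followed the fraction for the most part. Of 18 listed genes 15 had a probe and 14 were detected on at least 1 array. By their brightest probe 9 rose and 2 fell in CD43- cells in the limma fit, where 9.03% of 9058 genes rose and 12% fell. The 9 include Cr2 and Bcar3, which entered the fit only through the CD43- arrays, so nothing is read from their calls. The same 2 were 2-fold lower in each genotype, where 10.5% of all genes were in dKO and 11.1% in WT. Cd55, a complement regulator, had the widest gap, a log2 difference of 3.60 in dKO and 3.85 in WT (limma, adjusted p = 0.00272). Cd22, an inhibitory coreceptor, stood at 2.72 and 2.53. Cr2, the complement receptor of mature B cells, and Bcar3, an adaptor protein, were detected in CD43- cells only, with bounds on the log2 scale of at least 1.53 and 1.66 in dKO and 1.54 and 1.11 in WT. Vpreb1, a surrogate light chain gene of pro-B cells, fell, with differences of -1.63 in dKO and -2.70 in WT. Lef1, a factor of early B cells that PAX5 is known to induce, also fell, at -1.54 and -1.33. These lists were chosen with results of these data known, and nothing is called particular to them.

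Between genotypes the same genes had a median log2 difference of 0.08 in CD43- cells and -0.06 in CD43+ cells, and 0 of 14 passed the limma fit, where 0.0221% of genes were called higher and 0 lower. In CD43+ cells 0 of 12 reached 2-fold in either direction, where 1.72% of all genes were higher and 2.03% lower. Bst1, a surface enzyme of early B cells, stood at 0.95 in CD43- cells and 0.61 in CD43+ cells, with an adjusted p of 0.19 in the limma fit. Vpreb1 stood at 0.91 in CD43- cells and -0.16 in CD43+ cells. Lef1 stood at 0.70 in CD43+ cells by its brightest probe and at 0.19 by its other probe.

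Genes listed as FOXO1 targets had 10 of 11 members detected, Ikzf1 being one of them. In CD43- cells 5 rose in the limma fit. At 2-fold, 4 were higher in CD43- cells in dKO and 5 in WT, where 6.06% and 7.82% of all genes were. Ccr7, a chemokine receptor, had a log2 difference, CD43- minus CD43+, of 1.97 in dKO and 2.83 in WT, Btla, an inhibitory receptor, 2.07 and 2.44, and Rag1, a subunit of the V(D)J recombinase, 0.89 and 1.80. Syk, a kinase of the pre-B receptor, stood at 1.63 and 1.77. Between genotypes 0 of the 10 reached 2-fold in either fraction, where 3.66% of all genes were higher and 2.56% lower in CD43- cells, and 0 passed the limma fit. Rag1 stood at -0.25 (bead SE 0.115) and Ccr7 at -0.05 (0.163), dKO minus WT, in CD43- cells, and at 0.66 (0.146) and 0.81 (0.208) in CD43+ cells. Il7r, the receptor gene for interleukin 7, stood at 0.43 in CD43- cells by its brighter probe, at -0.16 by its other probe and at -0.15 in the RMA values, so its direction was not settled. Syk was at -0.56 in CD43- cells, and Blnk, the adaptor that SYK phosphorylates, at -0.51 in CD43+ cells, where its other probe gave -0.10.

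Transcription factors that act with the members divided by fraction. Of 16 on the array, 6 rose and 4 fell in CD43- cells in the limma fit, against 9.03% and 12% of all genes. Irf4, which promotes pre-B differentiation, rose, with a log2 difference of 1.97 in dKO and 1.82 in WT, and Pou2f2, whose product Oct-2 binds OBF-1, rose, at 1.83 and 2.52. Irf8, Tcf4 and Id2, all of which plasmacytoid dendritic or NK cells also use, fell. Spib, which plasmacytoid dendritic cells also use, rose, with a log2 difference of 1.02 in dKO and 1.54 in WT. Irf8 stood at -1.87 in dKO and -1.68 in WT, Tcf4 at -1.74 and -1.72, and Id2 at -3.27 and -1.60.

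Between genotypes Runx1, a core-binding factor that acts upstream of and with EBF1, had a wider gap than any member detected on all arrays. Its signal was 515.7 in dKO and 276.3 in WT CD43- cells, and 633.4 in dKO and 294 in WT CD43+ cells, a log2 difference of 0.996 (bead SE 0.122) and 1.19 (0.126). Its estimate in the limma fit, 1.09, had an adjusted p of 0.167. Tcf3, which encodes the E2A proteins, was at 160.2, not detected, in dKO CD43+ cells and at 189.6, detected, in WT CD43+ cells, a log2 bound of -0.76, and was not detected in CD43- cells. Tcf12, an E protein gene, stood at 0.77 and Ets1 at 0.60 in CD43+ cells, and Id2, an inhibitor of E proteins, at -0.96 in CD43- cells and 0.70 in CD43+ cells. Of the 10 paralogs of the members on the array, Bach1 was detected on all 4 arrays, with differences of 0.02 in CD43- cells and 0.24 in CD43+ cells. Bcl11b, a T-cell factor, was detected in dKO CD43+ cells only. Ebf2, Ebf3, Ebf4, Foxo3, Foxo4, Foxo6, Pax2 and Pax8 were not detected on any array.

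The probes whose 4 normalized values, centred on their own mean, lay nearest to those of Ebf1 belonged to Zbtb18 (listed under an older name), Marcks, Trp53inp1 with both its probes, and Tob1. Their distances in log2 units were 0.033 for Zbtb18, 0.076 for Marcks, 0.079 and 0.103 for Trp53inp1 and 0.087 for Tob1. Over the 9329 other probes detected on all arrays, 103 lay within 0.25 of Ebf1. Nearest to the brighter Ikzf1 probe were Top2b at 0.033, Cobll1 at 0.055, Map3k1 at 0.059, Zfp148 at 0.072 and Ezh2 at 0.075, with 222 of 9328 probes within 0.25. With 4 arrays these are descriptions of a shared profile.

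Promoter windows, 250 bases before to 50 after a start site, were read from RefSeq (GRCm38.p6) for 8 of the 10 genes, 10 windows in all since Ebf1 and Ikzf1 have a pair each. Each was searched on both strands for 4 short motifs, TCCC and GGGA with 2 bases of any kind between them (EBF, a palindrome), TGGGAA (Ikaros), GTAAACA (FOXO) and ATGCAAAT (octamer), none of which overlaps another in these windows. The EBF letters were found in 1 window, that of Foxo1, starting at position -92 from the start site, and in 0.904% of all 32851 windows. The Ikaros letters were found in 2 windows, that of Bcl11a at position -161 and 1 of Ebf1 at position -207 on the minus strand, and in 25.6% of all windows. The FOXO and octamer letters were found in 0 member windows and in 3.65% and 1.74% of all. A match describes letters in a window and is not evidence of binding. The 250 bases before the start site of the 3 windows with a match are printed because they carry the motif of a fellow member in genes that moved with the fraction, with the motif in capitals. They lie at chr3:52268087-52268336 for Foxo1, chr11:44619978-44620227 for Ebf1 and chr11:24080445-24080694 for Bcl11a, all on the plus strand.
Foxo1: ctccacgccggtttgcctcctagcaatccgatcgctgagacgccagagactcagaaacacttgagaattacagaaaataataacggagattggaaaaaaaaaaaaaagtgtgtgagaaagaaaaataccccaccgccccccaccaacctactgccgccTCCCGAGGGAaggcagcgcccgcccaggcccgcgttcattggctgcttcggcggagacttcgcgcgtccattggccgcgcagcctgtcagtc
Ebf1: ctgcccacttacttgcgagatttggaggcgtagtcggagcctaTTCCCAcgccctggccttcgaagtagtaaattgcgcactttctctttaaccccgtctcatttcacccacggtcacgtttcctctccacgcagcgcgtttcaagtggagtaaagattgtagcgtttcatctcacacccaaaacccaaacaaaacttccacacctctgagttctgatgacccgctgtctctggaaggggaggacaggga
Bcl11a: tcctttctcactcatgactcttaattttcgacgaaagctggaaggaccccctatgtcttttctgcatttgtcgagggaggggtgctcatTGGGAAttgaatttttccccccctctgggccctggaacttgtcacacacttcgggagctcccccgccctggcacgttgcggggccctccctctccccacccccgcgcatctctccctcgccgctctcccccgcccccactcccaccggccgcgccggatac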

How the data were processed

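RNA of 4 samples of sorted B220+ bone marrow cells was measured on Illumina MouseRef-8 BeadChips, and the title of each array gave its group. The deposited signal table was exported from GenomeStudio 1.9.0 without normalization, per the file headers, and gives a mean bead intensity per probe on a linear scale and the SD of those intensities. It also holds a count of beads per probe, per the file headers. Its detection column, named in the file headers, is a fraction that is higher for brighter probes in the deposited table, so 1 minus it served as the detection p. The authors also deposited log2 values, one per gene name, made with RMA per the submitters' processing notes, which were used as an alternative. How they were centred is not stated.

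Signals were corrected and normalized with neqc in limma 3.58.1 (R 4.3.3), with an offset of 16 and quantile normalization, and log2 transformed. The offset shrinks the differences of dim probes. A probe was tested in a comparison when its detection p was under 0.01 on at least 1 of the 2 arrays. The SE of a difference is the bead SD over the square root of the bead count, carried to the log2 scale, and the 95% bead interval is 1.96 SE either way. The additive fit used limma's lmFit and eBayes with Benjamini-Hochberg adjustment over 12191 probes. Whether the fractions of a genotype share mice is not stated. An effect of mice common to both fractions would cancel in the fraction term of the fit but not in its genotype term. The labels give no replicates, so its spread is that between single arrays, and their number limits the precision. The steps were tested on simulated data.

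Every member probe is named, with the 3 genes of each list that differ most in each described comparison (brightest probe per gene), the 5 probes nearest to Ebf1 and to Ikzf1, and Btg1 and Btg2. Further list genes are named where a count of detected or undetected markers turns on them, and Spib is named beside the other factors of plasmacytoid dendritic cells. Some list genes that this rule names are not reported here. The members, lists and tests were chosen with earlier results of these data known. No gene coordinates are given for probes, since no build is stated with the array files.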

Additional observations from a re-analysis of the deposited data

How the results depend on the processing

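The alternatives were an offset of 50, no background correction, median scaling, a detection p under 0.05, no filter on dim probes, the authors' RMA values, bounds for probes detected on 1 array, the other probe of a gene, limma's intensity trend, and median scaling on probes detected on all 4 arrays, which was chosen after seeing the data. Each group had 1 array, so leaving out an array was not run, and the file headers give no slide to use as a block. No paired analysis was possible because the groups share a single replicate number. The fraction term of the limma fit compares the fractions within each genotype, and its genotype term compares the genotypes within each fraction. Signal over background limits Pax5, whose log2 difference, CD43- minus CD43+, was 1.05 in dKO and 1.14 in WT with an offset of 50, 0.63 and 0.61 without background correction and 3.54 and 3.08 in the RMA values.

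Median scaling gave 1 member probe at 2-fold higher in dKO in each fraction, against 0: the dimmer Ikzf1 probe in CD43- cells, at 1.06, and Bach2 in CD43+ cells, at 1.03. It also put Pou2af1 at 0.26 in CD43+ cells. Without background correction 3 member probes were 2-fold higher in CD43- than in CD43+ cells in each genotype, against 5. The intensity trend called 1 member between genotypes, Bach2, against 0. Members called between fractions numbered 4 in the RMA values and 6 or 7 otherwise. Pacsin1, a plasmacytoid dendritic cell marker, stood at 1.44 in dKO minus WT CD43- cells and at -0.017 in the RMA values, and the cause was not tested.

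Counts over all probes that moved by over 1.5 times were these. In dKO against WT CD43- cells, 374 higher and 312 lower became 135 and 95 with an offset of 50, 54 and 45 without background correction, 599 and 150 with median scaling, and 218 and 164 with bounds. In CD43+ cells, 188 and 280 became 46 and 114 with an offset of 50, 11 and 49 without correction, 515 and 190 with median scaling, 111 and 508 with the added scaling, 386 and 361 in the RMA values, and 119 and 202 with bounds. Between the fractions, 691 higher and 1113 lower in dKO became 426 and 752 with an offset of 50 and 256 and 466 without correction, and 918 and 1199 in WT became 507 and 806, and 311 and 506. The limma fit called 3 probes between genotypes, against 327 with an offset of 50, 868 without correction, 1117 with a trend and 0 in the RMA values. Between fractions it called 2461, against 3802 without correction, 3991 with a trend and 930 in the RMA values.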
